A study of Mus musculus with 25 samples.

Results

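Genes for the breakdown of branched-chain amino acids were followed in perigonadal white fat (pgWAT), which lies beside the epididymis, of mice that lacked 1 or both isoforms of the glucose-responsive transcription factor ChREBP. The members were the probes whose gene name on the array was Bcat2, Bckdha, Bckdhb, Dbt, Bckdk, Ppm1k, Ivd, Mccc1, Hibadh or Acadsb, which gave 21 probes of 10 genes among 56605 probes of 37008 genes. All 21 probes passed the filter on dim spots and were well above background on all 25 arrays. RNA of each mouse was hybridised to a single-colour Agilent array, and a level is the log2 of the quantile-normalised median intensity of a spot, so that levels are compared between arrays and never between probes.

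Per the labels and the methods, ChREBPbeta_KO mice (6 arrays) carried a CRISPR/Cas9 deletion of exon 1b of Mlxipl, the exon from which the short ChREBPβ isoform starts, and ChREBPbeta_WT mice (7 arrays) were their wild-type littermates. ChREBPtotal_KO mice (5 arrays) were Mlxipl-null and lacked ChREBPα and ChREBPβ, with ChREBPtotal_WT littermates (7 arrays) as controls. All were male C57BL6/J mice, which were fasted for 24 h and then refed for 18 h with food and water holding 20% glucose, and their age is not given in the sources used here. Both deletions were present in every cell of the body, so no group isolates the fat cell. Each of the 4 wash batches given in the labels held all 4 groups.

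Leucine, isoleucine and valine share the first steps of their breakdown in mitochondria. Bcat2, the mitochondrial branched-chain aminotransferase, removes the amino group, and the branched-chain ketoacid dehydrogenase complex, built from Bckdha, Bckdhb, Dbt and the shared subunit Dld, then commits the ketoacids to oxidation. Bckdk is the kinase that phosphorylates and inactivates this complex, and Ppm1k is the phosphatase that restores its activity. Past the complex the routes part: Ivd and Mccc1 act on the leucine branch, Acadsb on the isoleucine branch and Hibadh on the valine branch. White fat is a known site of this pathway, which fat cells gain as they mature and which can feed carbon into fatty acid synthesis. Bckdk and Ppm1k have been reported as ChREBP targets in liver.

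ChREBP binds DNA at carbohydrate response elements, made of a pair of E boxes of the form CACGTG held 5 bases apart. RefSeq promoter windows (GRCm38.p6, 250 bases before to 50 after a gene start) were found for 9 of the 10 genes, 11 windows in all, with none for Dbt. Of these windows, 0 held CACGTG, a motif that reads the same on both strands and stood in 7.15% of all 32851 windows in the table. The closest match to the full element in a window is shown for the gene with the nearest match, for the pair of reported liver targets and for Klf15, a regulator of the pathway from outside the 10 genes, with capitals for the bases that match either E box:
Bcat2 (chr7:45571201-45571217, plus strand): aACGTGataaatAaGTG
Bckdk (chr7:127903954-127903970, plus strand): CcaaTGctactCAttTG
Ppm1k (chr6:57535705-57535721, minus strand): CtgGTGcctgattCGaG
Klf15 (chr6:90462348-90462364, plus strand): CACGTGgtctgCACtTc

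The Bcat2 match began at base -78 from the second of its gene starts and differed from the element at 3 of 12 box bases, as the best match of 8.56% of all windows did or bettered. Bckdk and Ppm1k differed at 5 box bases, a distance that 94.1% of all windows reached or bettered. The best matches of Ivd, Mccc1, Hibadh and Acadsb each differed at 4 box bases (44.1% of all windows). The Klf15 window held 3 CACGTG boxes, and its best match, at base -228 from the start, differed at 2 box bases (0.953% of all windows). A match of letters is a description of the window and not a binding site.

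Mlxipl itself was read first, as a check of the labels. On its brightest probe (chr5:135613705-135613764, mm9), its level was 15.64 to 16.28 in ChREBPtotal_WT and 14.08 to 14.29 in ChREBPtotal_KO, without overlap (log2 difference -1.75, SE 0.15, limma adjusted p 3.17e-08). In the ChREBPβ line, which keeps ChREBPα, it was 14.70 to 15.43 in ChREBPbeta_WT and 14.02 to 14.70 in ChREBPbeta_KO. All 6 KO arrays lay below all WT arrays, by a narrow gap (14.7046 against 14.7047). The log2 difference was -0.73 (SE 0.14, unadjusted limma p 3.3e-05, adjusted p 0.14), and it was negative in all 4 wash batches. Another Mlxipl probe, A_55_P2045158, lay at like levels in all groups, with 0.08 in the total line and -0.05 in the ChREBPβ line. A dimmer one, A_55_P2728555, which shares 20-base runs with probes of 8 other genes, gave -0.66 (adjusted p 0.00109) and -0.47 (adjusted p 0.247). Fat cell markers such as Adipoq, Plin1 and Fabp4 had a mean level of 15.88 to 16.46 over all arrays. Markers of liver were also bright: the mean level of 10 liver genes, Alb, Apoa1 and Ttr among them, was 13.00 to 16.70 in ChREBPbeta_WT, 11.48 to 16.13 in ChREBPbeta_KO, 7.69 to 13.74 in ChREBPtotal_WT and 7.24 to 8.53 in ChREBPtotal_KO. The kidney list, with 6 of 10 genes above the filter, had a mean level of 6.22 to 10.52 over all arrays, and the epididymis list, with 3 of 10, of 6.05 to 9.62. In this bulk tissue, fewer cells of a type and less RNA per cell cannot be told apart.

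When ChREBPα and ChREBPβ were both absent, most of the 10 genes read higher at the mRNA level. Of the 10 genes, each read on its brightest probe, 6 were called at a limma adjusted p under 0.05 in ChREBPtotal_KO against ChREBPtotal_WT and all 6 were higher: Bcat2, Bckdhb, Dbt, Ivd, Mccc1 and Acadsb. Over all 25908 genes tested, 9.36% were called, 5.74% higher and 3.62% lower. The 10 genes had a median log2 difference of 0.37, where the median over all genes was 0.02. The arrays of both groups did not overlap for 5 of the 10 genes, where this held for 7.58% of all genes. By probe, 13 of the 21 were called and all of them were higher.

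**Figure D1:**
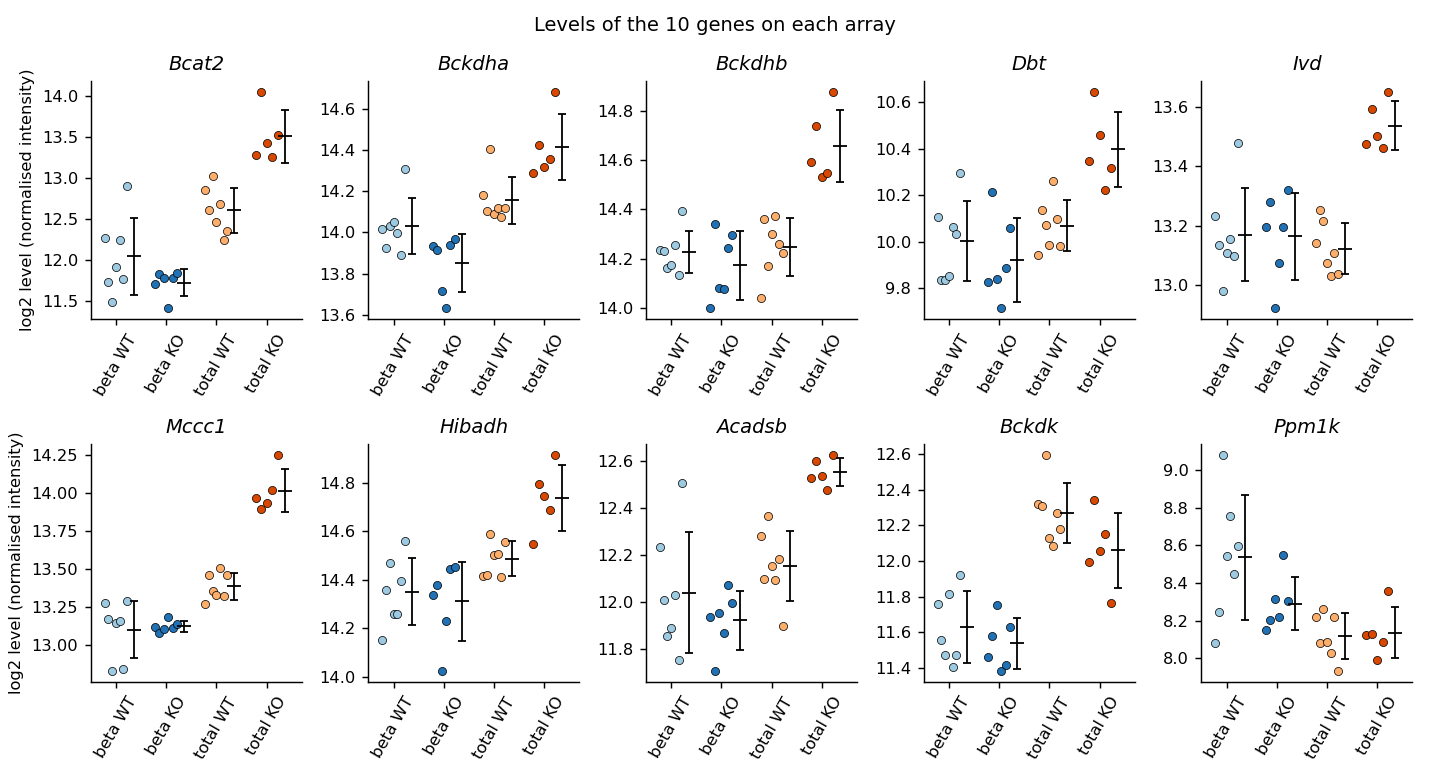
Log2 level (y axis, quantile-normalised intensity) of each of the 10 genes on every array, by group (x axis, ChREBPbeta_WT, ChREBPbeta_KO, ChREBPtotal_WT and ChREBPtotal_KO from left to right); each point is a mouse, and the bar beside each group is the mean with its SD. Ppm1k is shown on probe A_51_P265219. The 5 ChREBPtotal_KO arrays lie above all ChREBPtotal_WT arrays for Bcat2, Bckdhb, Ivd, Mccc1 and Acadsb, and the y axes differ between genes and do not start at 0.

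Bcat2, which opens the pathway, had the largest change of the 10 genes. On its brightest probe (A_55_P1960167, chr7:52844940-52844999, mm9) its level was 12.26, 12.62 and 13.03 at the lowest, median and highest ChREBPtotal_WT array. The ChREBPtotal_KO arrays read 13.26, 13.29, 13.44, 13.53 and 14.06, so that all 5 lay above the highest of the 7 WT arrays. Bcat2 was thus 1.88-fold higher (log2 difference 0.91, SE 0.19, adjusted p 0.00299), and the wash batches gave 0.91, 0.82, 1.06 and 0.68. A second, dimmer probe of Bcat2 (A_52_P393781) also separated both groups, by 0.60 on the log2 scale (SE 0.08, adjusted p 3.48e-05). Bcat1, the cytosolic aminotransferase, read -0.48 on the log2 scale, with a 95% interval of -1.08 to 0.12.

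The catalytic subunits of the dehydrogenase complex read higher in ChREBPtotal_KO, by less than Bcat2. Bckdhb, the beta subunit of the decarboxylase, had levels of 14.04, 14.26 and 14.37 at the lowest, median and highest ChREBPtotal_WT array. In ChREBPtotal_KO it read 14.53, 14.55, 14.59, 14.74 and 14.88, all above WT. The log2 difference was 0.42 (SE 0.08, adjusted p 0.000723), and a second probe gave 0.30 (adjusted p 0.00724). Dbt, the transacylase core of the complex, ranged from 9.94 to 10.26 in ChREBPtotal_WT around a median of 10.07. It read 10.22, 10.32, 10.35, 10.46 and 10.64 in ChREBPtotal_KO, with 1 of the 5 arrays inside the WT range. Its log2 difference of 0.34 (SE 0.09, adjusted p 0.0273) was the least secure of the calls: without ChREBPtotal_KO replicate 2 it fell to 0.26 (adjusted p 0.101). Without ChREBPtotal_KO replicate 3, ChREBPtotal_WT replicate 2 or ChREBPtotal_WT replicate 8, the adjusted p was 0.0577, 0.0523 and 0.0518.

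Bckdha, the alpha subunit that carries the phosphorylation sites, did not pass the threshold. It ranged from 14.07 to 14.41 in ChREBPtotal_WT, where replicate 4 stood apart from the other arrays at 14.41, and read 14.29, 14.32, 14.36, 14.43 and 14.68 in ChREBPtotal_KO. The groups overlapped through that WT array, and the log2 difference was 0.26 (SE 0.08, adjusted p 0.0581). Without it the difference was 0.31 with an adjusted p of 0.0233, and it was called as well without ChREBPtotal_KO replicate 1 (0.32, adjusted p 0.038), ChREBPbeta_WT replicate 8 (0.26, adjusted p 0.0447) or ChREBPbeta_KO replicate 5 (0.27, adjusted p 0.049). Bckdha stayed uncalled in 21 of the 25 fits that left out 1 array. Among these the difference fell as low as 0.16 and the adjusted p rose as high as 0.271. Dld, the subunit shared with other dehydrogenase complexes, read 0.0051 and was not called.

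Both leucine branch genes were called. Mccc1, the biotin-bearing subunit of methylcrotonyl-CoA carboxylase, had levels of 13.27, 13.35 and 13.51 at the lowest, median and highest ChREBPtotal_WT array and 13.89, 13.93, 13.97, 14.01 and 14.25 in ChREBPtotal_KO. It was 1.56-fold higher (log2 difference 0.64, SE 0.08, adjusted p 8.44e-06), the smallest adjusted p of the 10 genes, and its other probes gave 0.55 and 0.48, both called. Ivd, isovaleryl-CoA dehydrogenase, ranged from 13.03 to 13.25 in ChREBPtotal_WT and from 13.46 to 13.65 in ChREBPtotal_KO. Its groups were again separate, and the log2 difference was 0.42 (SE 0.08, adjusted p 0.000681). The other Ivd probes gave 0.41 for the one nearer the start of the transcript and 0.81 for the one farthest along it (chr2:118708357-118708416), so the sizes disagreed by probe while the direction did not.

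On the isoleucine branch, Acadsb, the short/branched-chain acyl-CoA dehydrogenase, ranged from 11.90 to 12.36 in ChREBPtotal_WT. It read 12.48, 12.53, 12.54, 12.60 and 12.63 in ChREBPtotal_KO, a tight group above all WT arrays. The log2 difference was 0.41 (SE 0.10, adjusted p 0.012). A second Acadsb probe gave 0.42 (adjusted p 0.0445), and a dim probe of a cDNA record gave 0.12 and was not called.

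On the valine branch, Hibadh, hydroxyisobutyrate dehydrogenase, ranged from 14.41 to 14.59 in ChREBPtotal_WT and read 14.55, 14.69, 14.75, 14.79 and 14.92 in ChREBPtotal_KO. Only the lowest KO array lay within the WT range, and the log2 difference of 0.25 (SE 0.08) missed the threshold with an adjusted p of 0.0615. It passed without ChREBPtotal_KO replicate 1 (0.32, adjusted p 0.0224) or ChREBPbeta_KO replicate 4 (0.25, adjusted p 0.0388). In 23 of the 25 fits that left out 1 array it stayed uncalled, with differences down to 0.19 and adjusted p up to 0.237. Its second probe gave 0.09, with no KO array above all WT arrays.

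Neither the kinase nor the phosphatase of the complex was called. Bckdk ranged from 12.09 to 12.60 in ChREBPtotal_WT, with a median of 12.27, and read 11.76, 11.99, 12.06, 12.15 and 12.34 in ChREBPtotal_KO. Of the KO arrays, 3 lay below all WT arrays, and the log2 difference was -0.23 (SE 0.10, 95% interval -0.44 to -0.02, unadjusted limma p 0.0356, adjusted p 0.199). It was negative in all 4 wash batches, at -0.12, -0.25, -0.41 and -0.26. On brightest probes, Bckdk was the 1 gene of the 10 with a negative value in this comparison.

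Ppm1k needed a choice of probe. Its brightest probe, A_55_P1968606, had a median raw intensity of 295117 and shared runs of 20 bases with probes of 19 other genes. The run below, which starts at base 16 of the 60 bases of the probe, is shown because probes of 11 other genes hold it:
Ppm1k probe A_55_P1968606: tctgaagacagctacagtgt
The probe may therefore not read Ppm1k alone, and A_51_P265219 (chr6:57456890-57456949, mm9), which shares no such run, was used in its place in the plots of single genes, a choice made after its values were seen. On A_51_P265219, Ppm1k ranged from 7.93 to 8.26 in ChREBPtotal_WT and read 7.99, 8.09, 8.12, 8.13 and 8.36 in ChREBPtotal_KO. The groups overlapped almost fully, with a log2 difference of 0.02 and a 95% interval of -0.22 to 0.26, and the brightest probe gave 0.02 as well. The third probe was dim, with a level of 4.71 to 5.62 over all arrays, and gave -0.06.

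In mice that lacked ChREBPβ alone, none of the 10 genes was called. Of all genes, 0.00772% were called, so that the comparison called almost nothing anywhere. At an unadjusted limma p under 0.05 the count was 1 of the 10 genes, Bckdha, with 2515 of all 25908 genes. The point estimates were negative for 8 of the 10 genes, and the median was -0.06 against 0.02 over all genes. These counts and this median take Ppm1k on its brightest probe, where it read 0.04. On A_51_P265219, Ppm1k read -0.26 with an unadjusted limma p of 0.0309. For 0 of the 10 genes were the groups separate, and this was so for 0.0695% of all genes.

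The same enzymes that were called in the total line had intervals near or across 0 in the ChREBPβ line. Bcat2 ranged from 11.50 to 12.91 in ChREBPbeta_WT, a wide group, and from 11.42 to 11.85 in ChREBPbeta_KO. All but 1 of the 6 KO arrays lay inside the WT range, and the log2 difference was -0.34 (SE 0.18, 95% interval -0.72 to 0.04, adjusted p 0.594). Within wash batches 1 to 4 it was 0.04, 0.10, -0.61 and -0.76, so the direction was not shared by the batches. Mccc1 read 13.08 to 13.18 in ChREBPbeta_KO, within the 12.83 to 13.29 of ChREBPbeta_WT, with a difference of 0.03 and a 95% interval of -0.13 to 0.18. Bckdha ranged from 13.89 to 14.31 in WT and from 13.63 to 13.97 in KO (-0.19, 95% interval -0.35 to -0.02, unadjusted limma p 0.0293, adjusted p 0.482).

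For Bckdhb, Dbt, Ivd, Hibadh and Acadsb the log2 differences in the ChREBPβ line lay between -0.12 for Acadsb and -0.0086 for Ivd on brightest probes. Their other probes ran from -0.18 for Ivd (A_65_P11840) to 0.05 for Acadsb (A_55_P2008377). Among these, Bckdhb probe A_51_P102782 gave -0.14 (95% interval -0.28 to -0.0060, unadjusted limma p 0.0417). By probe, 0 of the 21 were called in this line. Bckdk gave -0.11 (95% interval -0.31 to 0.09) and Ppm1k, on A_51_P265219, -0.26 (95% interval -0.49 to -0.03, adjusted p 0.489). The Ppm1k value rested on a wide WT group, 8.08 to 9.08, that held all 6 KO arrays, and the wash batches gave -0.58, -0.04, -0.05 and -0.25. These intervals are wide beside the values themselves, and a p over the threshold does not show that a gene kept its level.

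**Figure D2:**
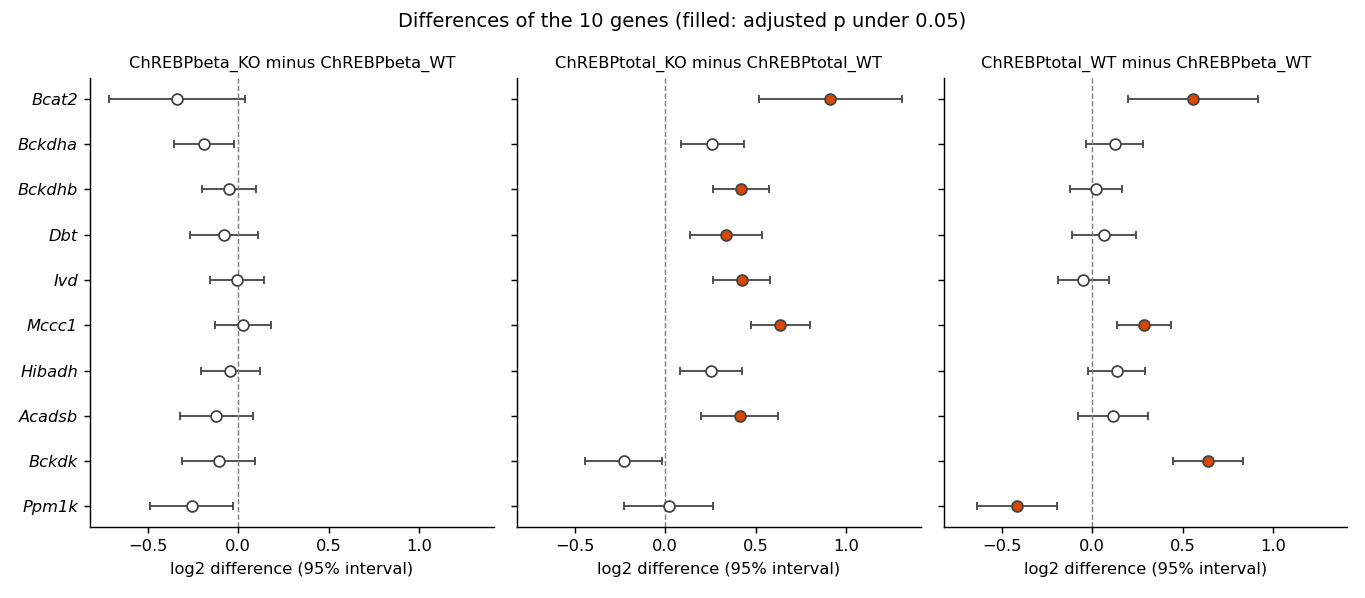
Log2 difference (x axis) of each of the 10 genes (y axis) in ChREBPbeta_KO minus ChREBPbeta_WT, ChREBPtotal_KO minus ChREBPtotal_WT and ChREBPtotal_WT minus ChREBPbeta_WT, with 95% intervals from the limma fit; filled points have an adjusted p under 0.05, and Ppm1k is probe A_51_P265219. In the middle panel 6 genes are filled and lie to the right of 0, from 0.34 for Dbt to 0.91 for Bcat2, and in the left panel 0 are filled.

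Whether the knockout effects differ was tested by the difference between them, the effect of total loss minus the effect of ChREBPβ loss. By this test 6 of the 10 genes were called, all with a more positive effect in the total line, where 3.49% of all genes were called, 1.34% in this direction and 2.15% in the other. Bcat2 differed by 1.25 (SE 0.26, adjusted p 0.00668), Mccc1 by 0.61 (SE 0.11, adjusted p 0.0014) and Acadsb by 0.53 (SE 0.14, adjusted p 0.0379). Of the complex, Bckdhb differed by 0.47 (SE 0.10, adjusted p 0.0105) and Bckdha by 0.45 (SE 0.12, adjusted p 0.0332), although Bckdha was called in neither line by itself. Ivd differed by 0.43 (SE 0.10, adjusted p 0.0203). Its other probes gave 0.99 (A_65_P11840, adjusted p 0.00144) and 0.46 (A_66_P105102, adjusted p 0.0739). Of the other Mccc1 probes, A_55_P2716461 was called (0.62, adjusted p 0.0216) and A_66_P133854 was not (0.50, adjusted p 0.146). Neither other Acadsb probe was called: A_66_P140128 gave 0.51 (adjusted p 0.147) and A_55_P2008377 gave 0.07 (adjusted p 0.923). The second probes of Bcat2 (0.69) and Bckdhb (0.45) were called. By probe, 10 of the 21 were called, all more positive in the total line.

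Several of these calls lay close to the threshold. The count was 3 without ChREBPtotal_KO replicate 7, where Ivd was lost (0.39, adjusted p 0.0508). Bckdha was lost without any of 12 arrays, ChREBPtotal_WT replicates 3, 5, 6, 7 and 8, ChREBPtotal_KO replicates 2 and 7, ChREBPbeta_WT replicates 1, 4 and 8 and ChREBPbeta_KO replicates 4 and 5, with adjusted p of 0.0511 to 0.0735. Acadsb was lost without any of 14 arrays, ChREBPtotal_WT replicates 3, 5, 6 and 7, ChREBPtotal_KO replicates 2, 3, 4 and 7, ChREBPbeta_WT replicates 1 and 2 and ChREBPbeta_KO replicates 2, 3, 5 and 8, with adjusted p of 0.0501 to 0.0799. Bcat2, Bckdhb and Mccc1 were called with every array left out in turn. With the mean levels of liver, kidney and epididymis markers as covariates, Bckdhb (0.41, adjusted p 0.0761) and Bckdha (0.46, adjusted p 0.116) were lost, and the other 4 were called.

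The remaining genes did not pass this test. Dbt gave 0.41 (adjusted p 0.097) and Hibadh 0.30 (adjusted p 0.215), both in the direction of the called genes. Bckdk gave -0.12, with a 95% interval of -0.41 to 0.17, and Ppm1k on A_51_P265219 gave 0.28, with an interval of -0.06 to 0.61. The median over the 10 genes, with Ppm1k on its brightest probe, was 0.44, where it was 0.0021 over all genes. 

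The wild-type groups of both lines also differed from each other, which the design cannot tell apart from the lines' separate breeding. Of the 10 genes, 4 were called in ChREBPtotal_WT against ChREBPbeta_WT, 3 higher and 1 lower, where 22.2% of all genes were called, 13.4% higher and 8.71% lower. With each array shifted to a common median in place of quantile normalisation, the calls over all genes were 4695 higher and 1742 lower, against 3482 and 2257.

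Bckdk had the clearest difference of the 10 genes here. It ranged from 11.40 to 11.92 in ChREBPbeta_WT and from 12.09 to 12.60 in ChREBPtotal_WT. All 7 arrays of the latter thus lay above all 7 of the former. On brightest probes, Bckdk was the 1 gene of the 10 with such a separation (5.53% of all genes). This was 1.56-fold (log2 difference 0.64, SE 0.09, adjusted p 8.11e-05), with 0.72, 0.75, 0.56 and 0.59 within the wash batches. The knockout differences of Bckdk were -0.23 and -0.11, in comparisons that share these wild-type arrays.

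Bcat2 was higher in ChREBPtotal_WT by 0.56 (SE 0.17, adjusted p 0.0242), with overlapping groups and 0.03 in wash batch 4 against 0.45 to 1.03 in the others. It was lost without ChREBPtotal_WT replicate 4 or 6 or ChREBPbeta_WT replicate 2, 3 or 7, at 0.46 to 0.53 with adjusted p of 0.0505 to 0.0649. Mccc1 was higher by 0.29 (SE 0.07, adjusted p 0.00678), and 6 of 7 arrays lay above all ChREBPbeta_WT arrays. Its probe A_55_P2716461 gave -0.01, and A_66_P133854 gave 0.59 (adjusted p 0.000831), so the probes of this gene disagreed. On A_66_P133854, all 7 ChREBPtotal_WT arrays lay above all ChREBPbeta_WT arrays. Ppm1k on A_51_P265219 was lower by 0.42 on the log2 scale (difference -0.42, SE 0.11, adjusted p 0.00739), with 2 of 7 arrays below the lowest ChREBPbeta_WT array. On the brightest Ppm1k probe the difference was -0.14 (adjusted p 0.0249), and its sign turned under both other scalings, to 0.0069 and 0.043. Without ChREBPtotal_WT replicate 4, ChREBPbeta_WT replicate 4 or ChREBPbeta_WT replicate 7 it was not called (adjusted p 0.0543 to 0.0655). The second probe of Hibadh was called as well, with 0.31 (adjusted p 0.00403), while the brightest was not (0.14).

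Liver marker genes moved with this comparison. All 10 were called lower in ChREBPtotal_WT than in ChREBPbeta_WT, by log2 differences of -6.06 to -3.38. Of all genes, 8.71% were called lower and 13.4% higher. Of the 3 epididymis markers measured, Adam7 was called higher by 3.73, while Lcn9 (0.05) and Rnase10 (-0.18) were not called. Of the 6 kidney markers measured, 3 were called lower: Slc22a6 (-2.02), Cubn (-1.55) and Slc34a1 (-1.53). Cdh16 (1.54), Aqp2 (0.05) and Lrp2 (-0.25) were not called. With the mean levels of the liver, kidney and epididymis markers as covariates, 0 of the 10 member genes and 0.00386% of all genes were called between the wild types. Liver markers differ strongly between these same groups, so this fit separates them poorly from the group difference. In it, Bckdk read 0.43 (adjusted p 0.615) and Ppm1k, on its brightest probe, -0.21 (adjusted p 0.589). Bcat2 read 0.09 and Mccc1 0.07. The part of the liver signal in these differences was not tested. In ChREBPtotal_KO against ChREBPtotal_WT, the 10 liver genes had log2 differences of -3.89 to -1.26, with a median of -2.54. Of these genes, 3 were called lower, where 3.62% of all genes were, and 9 had an unadjusted limma p under 0.05. With the same covariates, 5 of the 10 member genes were called there, all higher, where 6.37% of all genes were, and Dbt was lost (0.27, adjusted p 0.216).

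**Figure D3:**
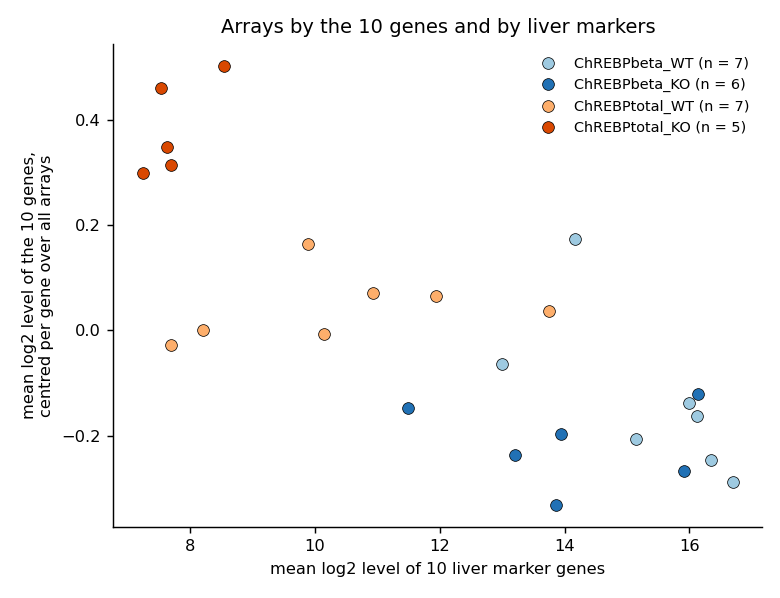
Mean log2 level of the 10 genes on each array, centred per gene over all arrays (y axis), against the mean log2 level of 10 liver marker genes (x axis); each point is a mouse, coloured by group, and Ppm1k enters by its brightest probe. The 5 ChREBPtotal_KO arrays sit highest, at 0.30 to 0.50, and at liver levels of 7.24 to 8.53, which 2 ChREBPtotal_WT arrays share at member means of -0.03 and 0.00.

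Some fat cell markers read higher in ChREBPtotal_KO as well, beside the mRNA of the enzymes. Of 10 such genes, 3 were called higher in ChREBPtotal_KO, where 9.36% of all genes were called, 5.74% higher and 3.62% lower. They were Plin1 and Plin4, which coat lipid droplets, by 0.41 and 0.53, and Cidec, which enlarges droplets, by 0.40. The mean level of this list was 16.35 to 16.39 in ChREBPtotal_KO against 15.88 to 16.30 in ChREBPtotal_WT, without overlap. The median log2 difference over the list was 0.19, against 0.37 for the member genes. Adipoq and Fabp4, defining markers of fat cells, read 0.25 and 0.08 and were not called. Of 8 macrophage, 8 lymphocyte, 6 endothelial and 6 mesothelial markers, 0 were called in this comparison (2 macrophage genes and none of the other 3 lists had an unadjusted limma p under 0.05), and 1 of 6 progenitor markers was lower. Of 8 brown fat markers, 1 was called, Dio2, the thyroid hormone deiodinase, higher by 2.62. The list had a median of -0.29, with 6 of the 8 below 0, 4 at an unadjusted limma p under 0.05, Cidea at -1.42 (adjusted p 0.0602) and Ucp1 at -0.33. The part of these markers in the result was not tested.

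Mitochondrial genes outside the pathway were read beside it. Of 17 such genes, most of the respiratory chain or the citric acid cycle and with Vdac1 and Tfam among them, 3 were called in ChREBPtotal_KO, where 9.36% of all genes were, and 7 had an unadjusted limma p under 0.05. All 3 were higher: Sdhb by 0.23, Dlst by 0.19 and Cox4i1 by 0.16. The median over the 17 genes was 0.07, with Cs and Uqcrc1 both at 0.02. Between the wild types, in contrast, 13 of the 17 were called higher in ChREBPtotal_WT, with a median of 0.20, where 22.2% of all genes were called.

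The wider pathway was described by 29 other genes, all with a probe above the filter. In ChREBPtotal_KO, 12 of the 29 were called, 10 higher and 2 lower, where 9.36% of all genes were called, 5.74% higher and 3.62% lower. The median log2 difference over the 29 genes was 0.16, against 0.02 over all genes. The largest was Oxct1, which activates ketone bodies for oxidation, with 0.99 (SE 0.13, adjusted p 1.44e-05). Enzymes called higher were Mccc2, the partner subunit of Mccc1 (0.38), Aldh6a1 of the valine branch (0.32), Echs1, an enoyl-CoA hydratase shared by the branches (0.28), Acad8, the isobutyryl-CoA dehydrogenase (0.22), and Mcee, which acts on methylmalonyl-CoA (0.22). Etfa (0.28) and Etfb (0.20), which take up the electrons of the acyl-CoA dehydrogenases Ivd, Acadsb and Acad8, were also called higher. Klf15, a transcription factor known to promote the pathway, rose by 0.57 (SE 0.10, adjusted p 0.000985). With each of the 25 arrays left out in turn, the call of Etfb was lost in 19 fits, of Mcee in 6, of Acad8 in 4 and of Echs1 in 1.

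The transporters did not move in 1 direction. Slc7a8, an amino acid exchanger of the cell surface, was higher by 0.66 (SE 0.15, adjusted p 0.00562). Slc25a44, the mitochondrial carrier of branched-chain amino acids, was lower, at -0.56 on the log2 scale (SE 0.13, adjusted p 0.00778), and so was Slc43a2, a facilitated transporter, with -0.38 (SE 0.12, adjusted p 0.0425), a call lost in 13 of the 25 fits that left out 1 array. The 17 pathway genes that were not called lay between -0.48 for Bcat1 and 0.31 for Pcca.

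**Figure D4:**
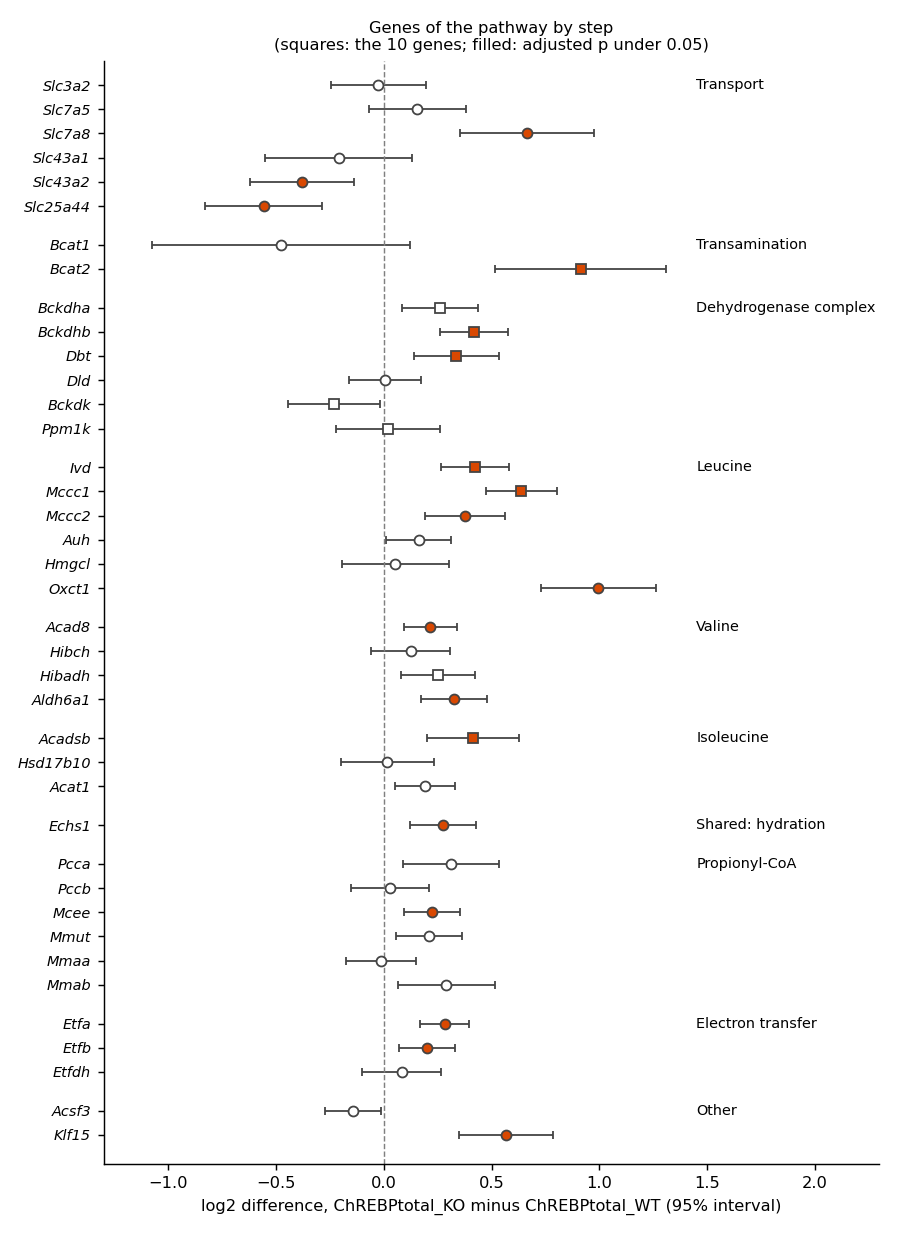
Log2 difference in ChREBPtotal_KO minus ChREBPtotal_WT (x axis, with 95% intervals) of 39 genes of the pathway (y axis), ordered by step from transport to electron transfer; squares are the 10 genes, circles the other 29, and filled symbols have an adjusted p under 0.05. Filled symbols lie right of 0 in every enzyme step that holds one, while the transporters Slc43a2 and Slc25a44 lie left of 0 at -0.38 and -0.56.

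In ChREBPbeta_KO, 0 of the 29 genes were called by limma, where 0.00772% of all genes were. At an unadjusted limma p under 0.05 the count was 3, to be read beside the count over all genes given above for this line. For 5 of the 29 genes the effects of both knockouts differed, where this held for 3.49% of all genes, 1.34% more positive in the total line. All 5 were more positive there: Oxct1 by 0.82, Klf15 by 0.67, Mccc2 by 0.50, Aldh6a1 by 0.45 and Echs1 by 0.38. The call of Echs1 was lost in 17 of the 25 fits that left out 1 array. Between the wild types, 10 of the 29 were called, where 22.2% of all genes were. Hsd17b10 (0.74), Slc25a44 (0.71), Slc43a1 (0.59), Pccb (0.50), Dld (0.43), Slc3a2 (0.29), Acsf3 (0.22) and Mcee (0.19) were higher in ChREBPtotal_WT, and Slc7a8 (-0.72) and Oxct1 (-0.64) were lower. The call of Slc3a2 was lost in 8 and that of Mcee in 2 of the 25 fits that left out 1 array. Slc7a8, Oxct1 and Slc25a44 were thus called in opposite directions in the wild-type and the knockout comparison, which share the ChREBPtotal_WT arrays.

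Across the 25 arrays, the 8 enzyme genes varied together. Pearson's r between pairs of their levels was 0.69 to 0.91 over 28 pairs, with a median of 0.79. Bckdk correlated with the enzymes at 0.23 to 0.70 (median 0.49), and Ppm1k on A_51_P265219 at -0.50 to -0.15. These arrays share groups and wash batches, so that the values describe the arrays together and are not a test.

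Outside both lists, the gene most like the mean of the 10 genes over the 25 arrays was Hsd17b14, a hydroxysteroid dehydrogenase, at r = 0.97, followed by Plekhm1 and A930007I19Rik (both 0.94), Gm9895 (0.94) and Ppm1m (0.94). Hsd17b14 was higher in ChREBPtotal_KO by 0.73 (adjusted p 0.0021) and read -0.19 in the ChREBPβ line. Most like Bckdk were Ppp1r1a (0.93), Ctdnep1 (0.93) and Csl (0.93), of which Ctdnep1 was lower in ChREBPtotal_KO (-0.22, adjusted p 0.0236). Most like Ppm1k on A_51_P265219 were 1700119H24Rik, Scly and Ang4 (0.86 each), and on its brightest probe Medag (0.92), Pirb (0.89) and BC028528 (0.89).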

How the data were processed

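Each of the 25 arrays was a SurePrint G3 Mouse v2 array read with Agilent Feature Extraction 10.10.1.1. The deposited scanner files gave the median intensity of each spot, to which the authors had applied no normalisation. The authors' processed table holds log2 values, which correlated with the log2 median intensity of their arrays at 0.9998 or more and entered as an alternative.

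Median intensities were quantile-normalised on the log2 scale with limma 3.58.1 in R 4.3.3. Following the authors' rule, a spot was kept if found by the scanner software, significant and well above background on 81.25% of all arrays (21) or 75% of a group. Outlier spots were set to missing (24 values in the tested matrix), and replicated spots were reduced to their median. The 4 groups were fitted together in limma with wash batch as a fixed term (18 residual degrees of freedom), and p-values were adjusted by Benjamini-Hochberg over 39619 probes, with a call at an adjusted p under 0.05. Wash batch values are differences of group means within a batch, and intervals are 95% intervals of the fit. A gene stood for its brightest kept probe. Median raw intensity was 84 to 127 per array, the local background 15 to 22, 73.0% to 77.9% of spots were well above background and 0 were saturated. The number of arrays limits the precision. Mice were littermates from several litters, and p-values measure the spread between these mice.

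The 10 genes, the 29 other pathway genes and the marker lists were chosen with earlier results of these data known. In the total line all 10 genes are described on every probe, and in the other comparisons on chosen probes. Pathway genes called in at least 1 comparison are named, and the genes most alike are the 5 (for Bckdk and Ppm1k, 3) with the highest Pearson r. Probe coordinates are those of the array files (mm9). No mm9 annotation and no protein sequences were used here. On simulated data with 200 of 39619 probes changed by 1 on the log2 scale, 92.5% were recovered in each of the 3 pairwise comparisons. Of the calls, 4.15% to 5.61% were false. The noise was independent between probes, and the change exceeded that of every member gene in these comparisons. The share recovered therefore does not apply to effects of their size.

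Alternatives were other scalings, background correction, filters, array weights, probe choices, covariates and blocks, the processed table, and leaving out each array. Excluding probes that share sequence was added after seeing the data.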

Additional observations from a re-analysis of the deposited data

Results flagged for a closer look

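Of 40 sets of arrays tested for an array far from its group, 10 genes in 4 groups, 3 held one, where chance gives about 2. Bcat2 in ChREBPbeta_KO replicate 5 was the lowest of its group at 11.42. Bckdha was highest of its group in ChREBPbeta_WT replicate 8, at 14.31, and in ChREBPtotal_WT replicate 4, at 14.41.

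The effect of total loss differed from that of ChREBPβ loss, by the limma contrast of both effects, for 6 of the 10 genes. The log2 difference between the effects was 1.25 for Bcat2, 0.61 for Mccc1, 0.53 for Acadsb, 0.47 for Bckdhb, 0.45 for Bckdha and 0.43 for Ivd. Of the other pathway genes, it was 0.82 for Oxct1, 0.67 for Klf15, 0.50 for Mccc2, 0.45 for Aldh6a1 and 0.38 for Echs1. All of these were more positive in the total line. Liver markers differed in level between both lines, and with the liver, kidney and epididymis marker levels as covariates the calls of Bckdhb, Bckdha, Oxct1 (0.72, adjusted p 0.0692) and Echs1 (0.34, adjusted p 0.175) were lost.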

How the results depend on the processing

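The count of member genes called in ChREBPtotal_KO was 5 to 8 under every alternative, against 6, and that in ChREBPbeta_KO was 0. Bcat2 was called in ChREBPtotal_KO under every alternative that kept a probe of it, at 0.76 to 0.96 (the filter that asks for a spot found on every array kept none, and 9 of the 10 genes), and at 0.77 to 1.03 with each array left out. The difference of the knockout effects was called for 3 member genes under median scaling and 3 to 6 with an array left out, against 6. The wild-type comparison gave 0 member genes with the organ marker covariates, 2 with only its own groups in the fit and 2 to 4 with an array left out, against 4. Other pathway genes called in the total line were 7 under median scaling and 7 under 75th percentile scaling, against 12. For the difference of effects they were 8 with array weights, 2 under median scaling and 3 under 75th percentile scaling, against 5, and for the wild types 0 with the covariates, against 10. The cause of these shifts was not tested.

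Of all genes, the percent called in the ChREBPβ line was 0.143 with array weights, 0.0618 with the covariates, 0.0122 with that stricter filter, 0 to 0.255 with an array left out (0.255 without ChREBPbeta_KO replicate 4), and 0 under median or 75th percentile scaling, the mean over probes, no filter, no wash batch term, its own groups alone, or the authors' table. Without a filter it was 6.08 in the total line, 14.4 between wild types and 2.21 for the difference of effects. That difference gave 5.68 with array weights and 5.36 with the stricter filter, and the wild types gave 0.00386 with the covariates.

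Replicate numbers did not pair the samples: deviations of same-numbered mice correlated over 0.1 in 1 of 5 pairs in the ChREBPβ line, 0 of 4 in the total line and 3 of 6 between wild types. With replicate number added as a block, the member genes called were 1 for the difference of effects and 2 between wild types, the other pathway genes 7 in the total line and 2 for the difference of effects, and the percent of all genes 0 in the ChREBPβ line and 1.95 for the difference of effects.

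Some signs turned. Ppm1k, on its brightest probe or what replaced it, read in the ChREBPβ line -0.0015 with array weights, -0.070 with the mean over probes, -0.28 with the stricter filter and -0.26 without probes that share sequence. Its difference of effects was 0.037, 0.064, 0.30 and 0.28 in the same order and 0.027 with the covariates. In the total line it was -0.0060 with the mean over probes, and between wild types 0.043 under median and 0.0069 under 75th percentile scaling. Ivd in the ChREBPβ line read 0.016 under median scaling, 0.0043 under 75th percentile scaling and 0.0059 with the replicate block, and between wild types 0.071 and 0.036 under both scalings. Mccc1 in the ChREBPβ line read -0.063 with the covariates and -0.020 with the mean over probes, and Acadsb between wild types -0.27 with the covariates. With an array left out, the ranges crossed 0 for Bckdhb between wild types (-0.0022 to 0.063), Ppm1k in the difference of effects (-0.038 to 0.014), Ivd in the ChREBPβ line (-0.035 to 0.044) and between wild types (-0.076 to 0.0017), and Mccc1 (-0.022 to 0.062) and Hibadh (-0.073 to 0.016) in the ChREBPβ line.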
